A study of Mus musculus with 2 samples.

Results

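The p53 family consists of the transcription factors Trp53, Trp63 and Trp73, and its direct regulators taken here are Mdm2, Mdm4, Ppm1d, Cdkn2a and Usp7. The chromatin of these 8 genes was examined in resting B cells through their DNase I hypersensitive sites (DHS), the stretches of DNA that the nuclease DNase I cuts readily. A DHS belonged to a gene when it overlapped the gene body or 50 kb on either side, and each annotated promoter was then read on its own. By this rule 68 of the 47542 DHS in the list fell to the members, and 7 of the 8 genes had at least 1, where 77.0% of all 22350 protein-coding genes did. The cells were splenic B cells of C57/Bl6 mice, 8 weeks old, of genotype Trp53+/+ and mock-treated, that is, not irradiated. They had been enriched with magnetic beads against B220, a surface protein of B cells, and by the study's methods apoptotic cells were first removed. The series holds 1 DNaseI library and 1 input library of the same kind of cells, with no replicate, so every value below describes 1 library and no test could be run. In such a bulk sample, a site that is open in few cells and a site that is weakly open in all of them cannot be told apart.

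p53, encoded by Trp53, is a transcription factor that is kept at a low level in unstressed cells and is stabilised after DNA damage, when it acts on genes of cell cycle arrest, apoptosis and DNA repair. In B cells, whose development passes through programmed DNA breaks, p53 is a well-known barrier to lymphoma. Mdm2 is the ubiquitin ligase that marks p53 for degradation and is itself a p53 target gene, so that the pair forms a feedback loop. Mdm4 is the partner of Mdm2 and blocks p53 activity, Ppm1d is a phosphatase that reverses damage signalling, and Usp7 removes ubiquitin from p53 and from Mdm2. Cdkn2a encodes, from separate promoters, p19Arf, which inhibits Mdm2, and p16Ink4a, which inhibits the cyclin-dependent kinases that act on the retinoblastoma protein. Trp63 serves mainly in stratified epithelia and Trp73 in neurons and multiciliated cells, and both genes have a promoter for full-length (TA) proteins and an internal promoter for proteins that lack the transactivation domain (ΔN).

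The DNaseI library was checked against markers of the cell types that a spleen holds. All 6 B cell markers had a DHS over a transcription start site (TSS), with scores from 45.4 to 265. None of 6 T cell and none of 6 myeloid markers did. Within 5 kb upstream to 2 kb downstream of a TSS, a DHS was found for 1 T cell marker, Cd5 (97.67), which a subset of B cells also carries, and for 3 myeloid markers, Cd68 (142.32), Emr1 (41.05) and Itgam (18.16). The score is the deposited value of each DHS, whose scale is not stated. It ranged from 5.05 to 619 over the list with a median of 32.65, and it serves here only to rank sites within this library. The depth is unknown, and where no DHS is given, none was called.

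The 8 genes have 29 annotated promoters when TSSs within 100 bp of each other are taken as 1, and 9 of them had a DHS over the TSS, where 31.1% of the 49774 promoters of all protein-coding genes did. These 9 belonged to 6 genes, Trp53, Trp73, Mdm2, Mdm4, Ppm1d and Cdkn2a (46.6% of all protein-coding genes had a DHS over a TSS). In the wider window of 5 kb upstream to 2 kb downstream Usp7 joined them, which made 7 of 8 genes against 57.0% of all. Trp63 had none. When only protein-coding transcripts were taken, 7 of 16 member promoters were covered, beside 37.6% of 35576 promoters over all protein-coding genes.

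The promoters were also divided by base composition. Promoters counted as CpG-rich where 1000 bp centred on the TSS reached 55% GC and a CpG ratio (observed over expected) of 0.6. A DHS covered 6 of the 8 CpG-rich member promoters and 3 of the 21 CpG-poor ones, near the 69.5% and 16.9% of those classes over all protein-coding genes. Of the 6, 3 were starts of Mdm2 under the same DHS. The 9 covered promoters had CpG ratios from 0.54 to 0.98, and 18 of the 20 without a DHS had ratios from 0.16 to 0.48. The other 2, the first promoter of Ppm1d and the third of Usp7, had the highest ratios of all (1.0 each), and their TSSs lay in short gaps between neighbouring DHS. The 3 covered promoters of the CpG-poor class, those of Trp53 (GC 52.0%), of the second Ppm1d transcript (53.3%) and of p16Ink4a (52.5%), lay close to the limits of the class.

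**Figure D1:**
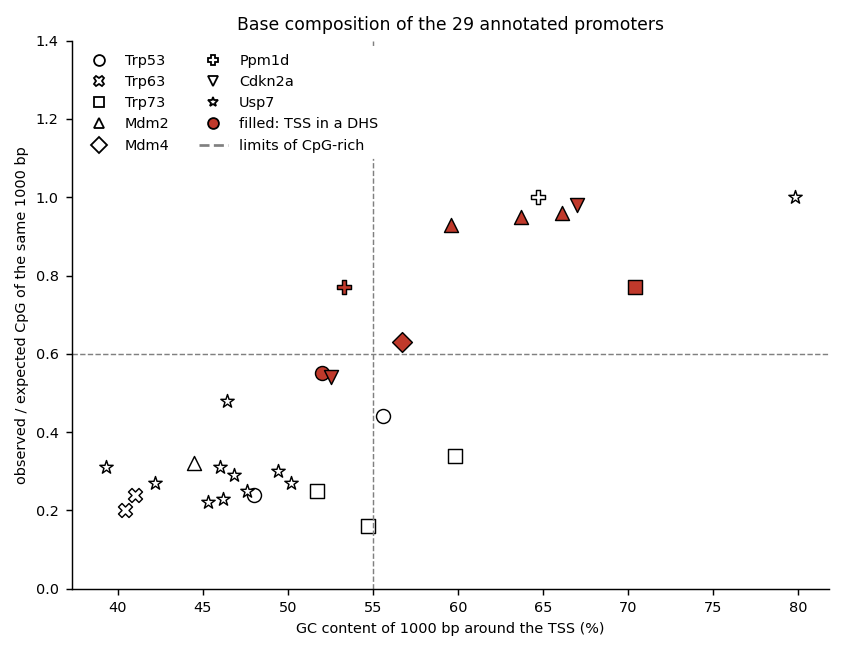
Base composition of the 29 annotated promoters of the 8 genes: GC content of the 1000 bp around the TSS (%) against the observed to expected CpG ratio of the same window. Each symbol is 1 promoter and its shape the gene, red symbols have a DHS over the TSS, open ones do not, and dashed lines mark the limits of the CpG-rich class. The 9 red symbols lie at ratios of 0.54 and above, and the only open symbols at such ratios are 1 promoter of Ppm1d and 1 of Usp7.

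The 7 DHS that covered member TSSs had a median score of 92.7, near the median of 94.4 of the 10484 DHS over TSSs of protein-coding genes (quartiles 53.8 and 144). They spread widely around it. Mdm2 stood highest with 267.20, at the 95.1 percentile of such DHS, followed by Trp53 (120.67), Mdm4 (102.89), Trp73 (92.65) and Ppm1d (77.34), all 4 between the quartiles. Both DHS of Cdkn2a lay below the lower quartile, p19Arf with 34.43 at the 13.9 percentile and p16Ink4a with 14.75 at the 3.01 percentile. With 1 library, the spread of a score between replicates is unknown, so no order among neighbouring values can be claimed.

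**Figure D2:**
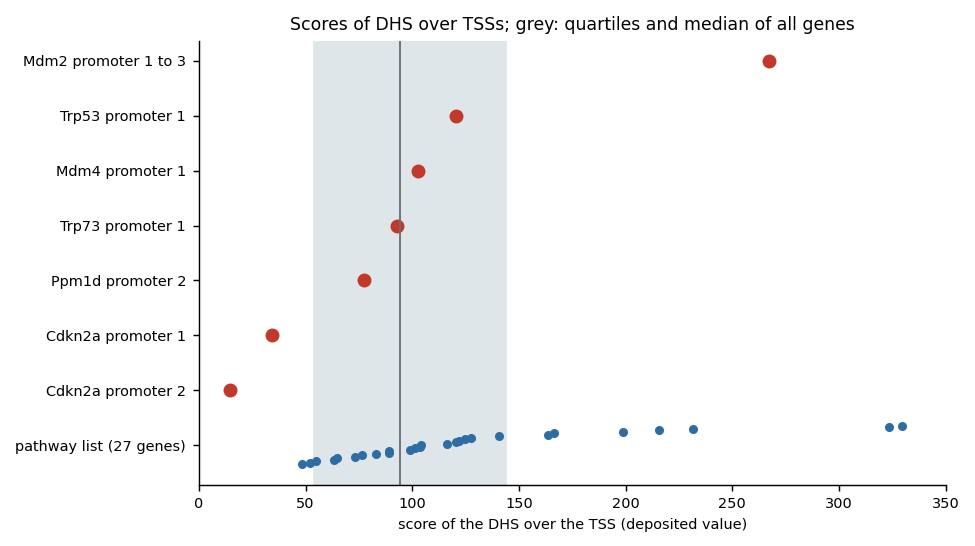
Scores of the 7 DHS that cover a TSS of a member (red, 1 row each) and of the DHS over the TSS of 27 other genes of p53 regulation (blue, bottom row, spread vertically by rank), on the deposited scale. The grey band spans the quartiles of all 10484 DHS over TSSs of protein-coding genes and the line is their median: Mdm2 lies right of the band and both Cdkn2a promoters lie left of it.

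Trp53 (ENSMUSG00000059552.6, mm9 chr11:69393861-69405375, + strand) had 1 open promoter out of 3. The first TSS, shared by Trp53-001 and 4 further transcripts, lay in a DHS of score 120.67 and 3526 bp that reached 1771 bp upstream and 1754 bp downstream. It stood at the 99.5 percentile of width in the list and at the 98.2 percentile among DHS over TSSs. The same DHS covered the start of Wrap53, a gene on the other strand whose protein takes part in telomerase assembly, with only 104 bp between the nearest TSSs, so its score cannot be divided between the genes. The internal starts of Trp53-202 and Trp53-004, 6.53 kb and 8.34 kb downstream, had no DHS, the nearest being the promoter DHS at 4777 and 6581 bp. The stretch between both starts (chr11:69393758-69393860, + strand) is shown because it is all that separates the divergent transcripts. Its 4 CpG are in capitals.
Trp53 to Wrap53 interval: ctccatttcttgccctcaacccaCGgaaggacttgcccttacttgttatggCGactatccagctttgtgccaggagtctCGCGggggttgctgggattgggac

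Trp63 (ENSMUSG00000022510.8, chr16:25683849-25892188, + strand) was the only member without a DHS. None was called in its 208340 bp or in 50 kb on either side, and 7.49% of the 31-base words in this locus occurred more than once in the genome, within the range of 4.94 to 22.0% over the 8 loci. The DHS nearest to the TA promoter lay 256630 bp upstream and 274646 bp downstream, and the ΔN promoter, 118 kb into the gene, was 156495 bp from the closest one. Both promoters were poor in CpG (ratios 0.20 and 0.24). The free stretch around the gene measured 531 kb, and 757 of the 46591 intervals between neighbouring DHS on the autosomes (1.62%) were longer. This rank is by count of intervals, not by length of genome. Because the locus of 308 kb held no DHS, the stretch had to exceed that length, so the rank does not show how unusual the gene is.

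Trp73 (ENSMUSG00000029026.9, chr4:153430358-153514317, - strand) had an open TA promoter and no DHS at the ΔN promoter. The TA start lay in a DHS of score 92.65 and 3870 bp (98.7 percentile of width among DHS over TSSs) that also covered the divergent start of Wdr8, 2164 bp away. Its midpoint was 942 bp upstream of the Trp73 start, between both genes, so here too the score is shared. The ΔN start of Trp73-002, 43.0 kb downstream, had its nearest DHS at 8364 bp, a weak site of score 12.69 in the intron. The starts at 23.6 kb (Trp73-003) and 54.9 kb (Trp73-006) were likewise uncovered. The 250 bases upstream of the TA start (chr4:153514318-153514567) and of the ΔN start (chr4:153471283-153471532), both on the - strand with CpG in capitals, show how the open and the uncovered promoter of this gene differ in sequence, with 18 CpG and 69.6% GC against 6 CpG and 58.4% GC.
Trp73 TA promoter: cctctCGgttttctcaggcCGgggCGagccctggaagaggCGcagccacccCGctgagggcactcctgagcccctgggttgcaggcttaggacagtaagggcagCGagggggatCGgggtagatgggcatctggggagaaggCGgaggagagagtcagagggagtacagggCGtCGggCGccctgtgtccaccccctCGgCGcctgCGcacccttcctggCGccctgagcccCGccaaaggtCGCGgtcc
Trp73 ΔN promoter: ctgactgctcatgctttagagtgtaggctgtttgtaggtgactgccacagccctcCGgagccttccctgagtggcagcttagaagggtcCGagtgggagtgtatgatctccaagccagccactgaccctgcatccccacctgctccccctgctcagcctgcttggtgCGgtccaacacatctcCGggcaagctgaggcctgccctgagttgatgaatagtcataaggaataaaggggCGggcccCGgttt

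With 50 kb on either side included, the loci of the 3 family genes ran from no DHS at Trp63 to 98.6 per Mb at Trp53 (11 DHS, 87.3 percentile of protein-coding gene loci), with Trp73 between them at 43.5 per Mb (8 DHS). These densities describe the neighbourhood more than the genes. Only 1 of the 11 at Trp53 overlapped the gene body, with 2 upstream and 8 downstream, several of them at or near the starts of Atp1b2 and Fxr2, and 2 of the 8 at Trp73 did. Over all protein-coding loci the median was 33.8 per Mb, with quartiles of 6.62 and 69.1.

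Mdm2 (ENSMUSG00000020184.8, chr10:117125944-117147814, - strand) carried the DHS with the highest score of the 68. It lay at chr10:117146624-117147830, scored 267.20 and was 1207 bp wide. Over the whole list it stood at the 98.6 percentile of score and the 74.5 percentile of width, and among DHS over TSSs at the 95.1 and 38.9 percentiles. It covered 3 of the 4 annotated promoters. The first (P1 in common usage, Mdm2-001) lay 16 bp inside its upstream edge, and starts 466 bp and 680 bp downstream lay within it. The last of these is in the region of the internal P2 promoter, through which p53 is known to drive the gene. Upstream, after a gap of 114 bp with a GC content of 79.8%, followed another DHS of score 68.34. The start of a retained-intron transcript, 19.2 kb downstream, had none.

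The amplicon with which the study measured p53 binding at Mdm2 by ChIP-qPCR was placed on the genome from its primers. It covers chr10:117147034-117147269 (236 bp, GC 66.9%) and lay wholly inside the DHS of score 267.20, 410 bp from one edge and 561 bp from the other, across the starts of the P2 region. The p53 response element is a pair of adjacent decamers with a C and a G at the core of each. When these core positions had to match and 2 mismatches were allowed among the 20 bases, the amplicon held 0 elements. With 3 mismatches allowed it held 2, 18 bases apart, of which the upstream one kept both cores and the downstream one did not. The stretch that holds both (chr10:117147105-117147212, - strand) is shown with the central 4 bases of each decamer in capitals, since this is where the known p53-responsive part of Mdm2 meets the strongest DHS of the loci.
Mdm2 P2 region: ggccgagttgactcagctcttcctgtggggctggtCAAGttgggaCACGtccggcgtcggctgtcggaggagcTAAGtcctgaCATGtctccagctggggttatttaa

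Mdm4 (ENSMUSG00000054387.6, chr1:134886422-134921943, - strand) has 1 annotated promoter, and its TSS lay in a DHS of score 102.89 and 1412 bp that reached 983 bp upstream and 428 bp downstream. The promoter barely met the CpG-rich limits (GC 56.7%, ratio 0.63). A further start in RefSeq, 5221 bp upstream, was CpG-poor (ratio 0.23) and had no DHS, with the nearest at 2659 and 4237 bp. All other DHS of the locus but 1 lay upstream of the gene, among them intergenic sites of 79.83 at 8.48 kb and 73.04 at 14.5 kb, and the DHS of 148.54 on the start of the neighbour Pik3c2b. Inside the gene a single site of 42.34 was found 13.1 kb downstream of the start.

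Ppm1d (ENSMUSG00000020525.11, chr11:85124746-85160568, + strand) had DHS on both sides of its first start and not over it. The TSS of Ppm1d-001 lay in a gap of 129 bp, 116 bp from a DHS of score 139.77 upstream and 12 bp from one of 77.34 downstream. The downstream DHS covered the start of the shorter transcript Ppm1d-002, 920 bp away. In RefSeq the start is 10 bp further downstream, still in the gap and 2 bp from the edge of the second DHS. The 250 bases upstream of Ppm1d-001 (chr11:85124496-85124745, + strand, 21 CpG in capitals) run from within the stronger DHS into the gap.
Ppm1d promoter: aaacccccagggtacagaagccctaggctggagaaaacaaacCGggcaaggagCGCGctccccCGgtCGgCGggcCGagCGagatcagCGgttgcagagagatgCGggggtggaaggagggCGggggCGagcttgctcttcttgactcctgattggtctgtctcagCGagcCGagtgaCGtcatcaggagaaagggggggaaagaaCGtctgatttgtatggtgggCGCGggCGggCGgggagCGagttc

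Usp7 (ENSMUSG00000022710.10, chr16:8688815-8792401, - strand) had the most DHS of the 8 loci by count, 17, and none over any of its 11 annotated promoters. Its locus spans 204 kb, and the density of 83.5 per Mb was below that at Trp53 (98.6) and Mdm2 (98.5). Of the 17, 8 overlapped the gene body. The 5′-most start, that of Usp7-001, lay in CpG-poor sequence (GC 46.4%) with its nearest DHS 14204 bp away. The start that RefSeq gives for the gene matched the third promoter, 53.9 kb downstream, shared by Usp7-002, Usp7-202 and Usp7-003. This promoter was the richest in GC of all 29 (79.8%). It lay in a gap of 759 bp with a GC content of 83.9%, 622 bp from a DHS of score 79.56 upstream and 58 bp from one of 51.75 downstream. The other 9 promoters, at 35.3 kb and from 70.7 kb to 94.7 kb, were all CpG-poor and lay 2489 bp or more from a DHS. Those from 70.7 kb to 94.7 kb have no protein-coding transcript and mostly start retained-intron transcripts. The 250 bases upstream of the third promoter (chr16:8738514-8738763, - strand) lie wholly in the gap and are shown for their composition, with 56 CpG in capitals and 89.2% GC.
Usp7 promoter at the RefSeq start: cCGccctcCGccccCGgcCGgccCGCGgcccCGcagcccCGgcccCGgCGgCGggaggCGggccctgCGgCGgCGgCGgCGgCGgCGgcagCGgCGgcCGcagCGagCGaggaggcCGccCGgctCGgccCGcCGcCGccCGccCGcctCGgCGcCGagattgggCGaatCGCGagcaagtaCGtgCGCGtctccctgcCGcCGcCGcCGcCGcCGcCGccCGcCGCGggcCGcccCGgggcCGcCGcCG

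The gaps that hold the starts of Ppm1d and Usp7 were set beside all short gaps of the list. Gaps of under 1000 bp between neighbouring DHS numbered 12209, with a median width of 173 bp and a median GC content of 51.4%. Of these, 1703 (13.9%) held a TSS of a protein-coding gene, and their median GC content was 73.8% (quartiles 63.7 and 79.5%) against 49.6% in the 10506 that held none. The Usp7 gap (83.9% GC) lay above the upper of these quartiles and the Ppm1d gap (61.2%) below the lower one. Over all gaps, the Usp7 gap stood at the 98.7 percentile of GC, the Mdm2 gap upstream of P1, which holds no TSS, at 94.0 and the Ppm1d gap at 74.9. Of the 31-base words, 0% in the Ppm1d gap and 0.412% in the Usp7 gap recurred in the genome, and the other gaps were not examined for this. The part of base composition and of repeated sequence in these gaps was not tested. Among all 34271 uncovered promoters, 4.70% had a DHS within 1000 bp on both sides.

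Cdkn2a (ENSMUSG00000044303.5, chr4:88920377-88940557, - strand) had a DHS at both promoters, each with a low score among DHS over TSSs. The first, from which p19Arf is made (Cdkn2a-201 and Cdkn2a-002), lay in a DHS of 34.43 and 1409 bp reaching 1096 bp upstream. The second, that of p16Ink4a (Cdkn2a-001), 12.5 kb downstream, was met only at its edge: the DHS of 14.75 and 472 bp began at the TSS itself, with 0 bp upstream, and ran into the gene. The gene body held 3 further weak DHS of 7.97, 9.82 and 11.22, and beyond its 3′ end, outside the gene, 1 of 23.43 lay over the start of Gm12606, a non-coding gene. Cdkn2b, the neighbour that encodes another kinase inhibitor, had a DHS of 158.37 over its TSS 16.4 kb upstream, at the 93.7 percentile of the list. On that scale the DHS of p19Arf stood at the 52.0 percentile and that of p16Ink4a at the 16.8 percentile. In the assembly, 27.8 kb of the locus from 22.2 kb upstream outwards are unknown bases, where no DHS can be mapped. The 250 bases upstream of the Arf start (chr4:88940558-88940807) and of the Ink4a start (chr4:88928097-88928346), on the - strand with CpG in capitals, held 38 and 7 CpG, and the Arf sequence holds the E2F word TTTCCCGC.
Cdkn2a Arf promoter: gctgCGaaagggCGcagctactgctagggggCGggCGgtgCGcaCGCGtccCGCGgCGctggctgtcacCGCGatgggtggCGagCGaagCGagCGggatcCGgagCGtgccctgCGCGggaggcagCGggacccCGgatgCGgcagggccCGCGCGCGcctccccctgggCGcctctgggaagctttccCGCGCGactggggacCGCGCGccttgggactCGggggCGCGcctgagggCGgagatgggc
Cdkn2a Ink4a promoter: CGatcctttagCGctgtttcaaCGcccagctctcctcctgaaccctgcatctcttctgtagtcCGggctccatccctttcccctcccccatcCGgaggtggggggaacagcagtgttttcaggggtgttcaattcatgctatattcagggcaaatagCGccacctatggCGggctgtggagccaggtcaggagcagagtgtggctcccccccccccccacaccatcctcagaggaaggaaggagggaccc

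**Figure D3:**
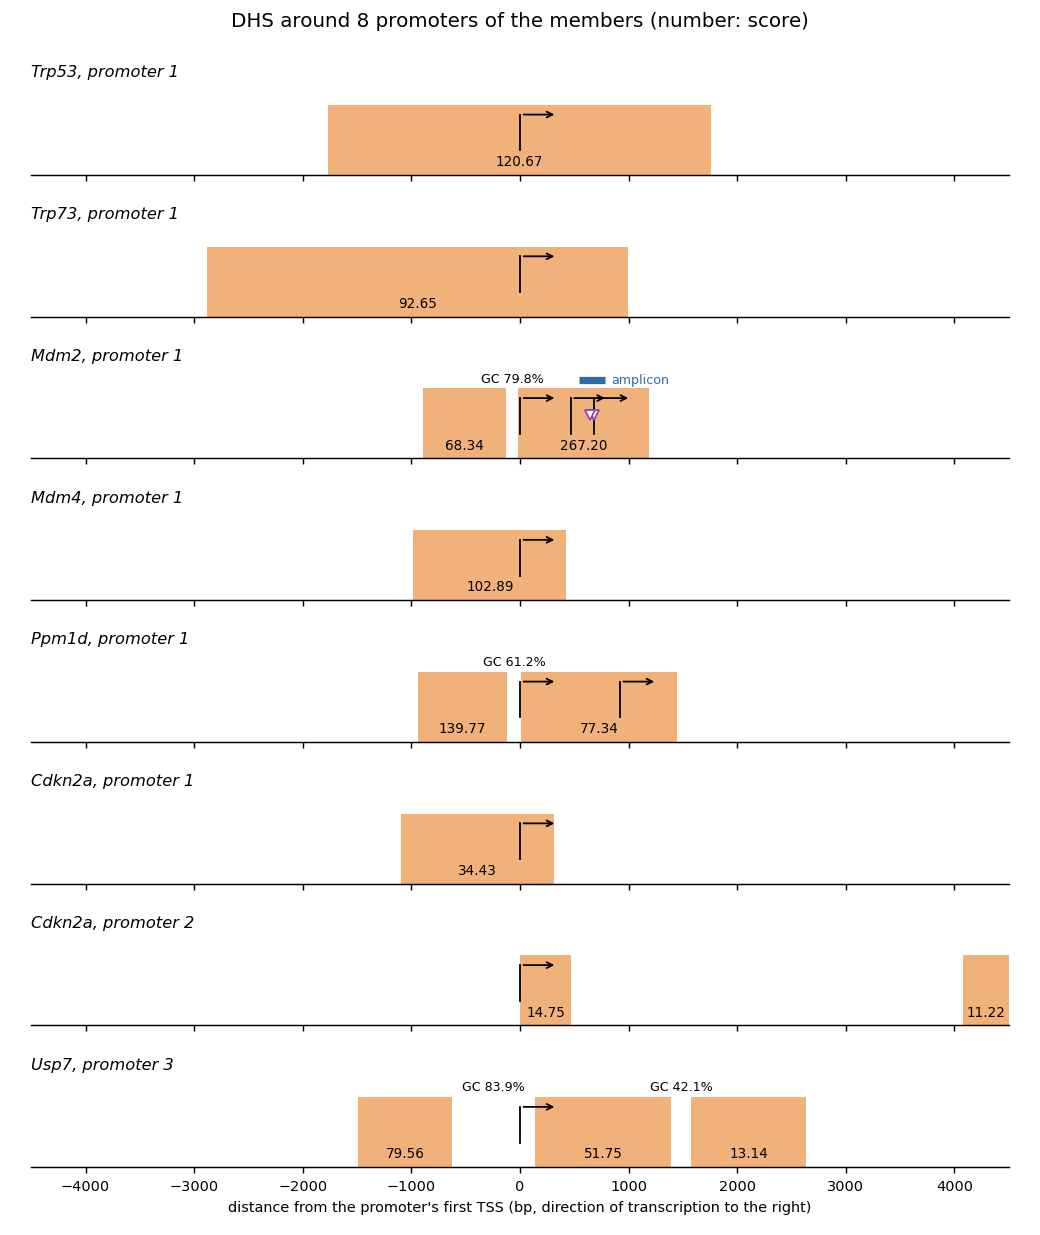
DHS (orange blocks, with their scores) around 8 member promoters, by distance from the promoter's first TSS in bp, with transcription running to the right. Black arrows are TSS groups, values above gaps are the GC content of the gap, the blue bar is the ChIP-qPCR amplicon of Mdm2, and open purple triangles are the 2 p53 elements with 3 mismatches inside it. The starts of Ppm1d and Usp7 stand in gaps, and the DHS of the second Cdkn2a promoter begins at the TSS.

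The p53 response element was then searched in the whole loci. Over the 8 loci, 1321 kb in all, 22 elements had at most 2 mismatches and intact cores, 10 of them with 1 mismatch and none with 0. Mdm2 and Trp73 had 6 each, Usp7 4, Mdm4 3, Cdkn2a 2 and Trp63 1, while Trp53 and Ppm1d had none. A single element of the 22 (4.55%) lay in a DHS, a share near the 5.19% of the loci that DHS covered. The share rests on 1 element, and the 22 include an overlapping pair at Mdm2 and another at Mdm4. By this rule the looser elements in the Mdm2 amplicon, inside its DHS, are not counted. The element in a DHS is in an intron of Trp73, 34.3 kb downstream of the TA start (chr4:153479980-153479999). It had 1 mismatch, and its DHS was weak (12.69). Another Trp73 element (chr4:153471329-153471348) stood 47 to 66 bp upstream of the uncovered ΔN start, and its nearest DHS was 8298 bp away. It was the only element within 250 bp upstream of a member TSS, a place where 0.245% of all promoters of protein-coding genes have one. At Mdm4, 3 elements lay in the intron between 5.05 and 5.92 kb downstream of the start, 2 of them overlapping each other, each with 1 mismatch and 4613 bp or more from a DHS. The Trp73 pair and the Mdm4 element farthest from the start (chr1:134916018-134916037), all on the - strand, are shown with the central 4 bases of each decamer in capitals.
Trp73 intron, in DHS: gggCAAGtctggaCCTGtct
Trp73 ΔN promoter, not in DHS: gggCAAGctgaggCCTGccc
Mdm4 intron, not in DHS: gaaCATGtccaaaCCTGtct

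With 3 mismatches allowed and the cores kept, 8 of 87 elements lay in DHS (9.20%). They included 1 in the DHS of the Trp53 promoter, within the interval to Wrap53 printed above, 1 in that of the Trp73 TA promoter and 1 in that of Mdm2. Over the whole list, 1.02% of DHS held an element with at most 2 mismatches, and in the loci 1 of 68 did (1.47%). The share of the list at 3 mismatches was not determined, so the looser matches have no such value beside them. Words of other factors were also searched. The word GAGGAAGT, bound by the B cell and myeloid factor PU.1, was searched on both strands and found in 3 of 68 DHS (4.41%) against 8.90% of the list, in the downstream Ppm1d DHS, the upstream DHS beside the third Usp7 promoter and the Gm12606 DHS. In the 250 bp upstream of the TSS it occurred at 1 member promoter, that of Usp7-001 (2.17% of all promoters). The E2F words TTTCCCGC and TTTGGCGC were found in 3 of 68 DHS (4.41%) against 3.21% of the list, and upstream of 1 member promoter, that of p19Arf (1.19% of all promoters). A match is a description of sequence and does not show binding.

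The 68 DHS comprised 7 on a member's own TSS, 9 on the TSS of another gene, 8 in exons, 24 in introns and 20 between genes. Their median score was 38.5, with 36 of 68 (52.9%) at or above the median of the list, and their median width 854 bp against 760 bp. Of these, 34 had their midpoint over 2 kb from every annotated TSS, as did 60.6% of the list. Their median score was 24.97 against 24.88 in the list. The highest of these far sites was an intergenic DHS of 119.53 at 48.2 kb downstream of the Trp53 start, followed by the one of 79.83 upstream of Mdm4 and one of 77.56 between Usp7 and Carhsp1. Usp7 had 12 such sites, Mdm2 7 and Mdm4 6, while Trp53 had 3, Trp73, Ppm1d and Cdkn2a 2 each. Some sites of high score lay at or near the starts of neighbours. They included the DHS over the starts of Carhsp1 (183.73), Bcas3 (175.09), Cdkn2b and Pik3c2b. Upstream of Usp7, sites of 220.18 and 196.93 lay 678 and 878 bp from the start of 1810013L24Rik. Further sites were 123.08 at 520 bp from the start of Fxr2 and 109.50 at 384 bp from that of Slc35e3. Weaker neighbour starts were those of Tprgl (62.37), Cpm (53.16), Atp1b2 (42.36), Lrrc47 (29.64) and Gm12606 (23.43).

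**Figure D4:**
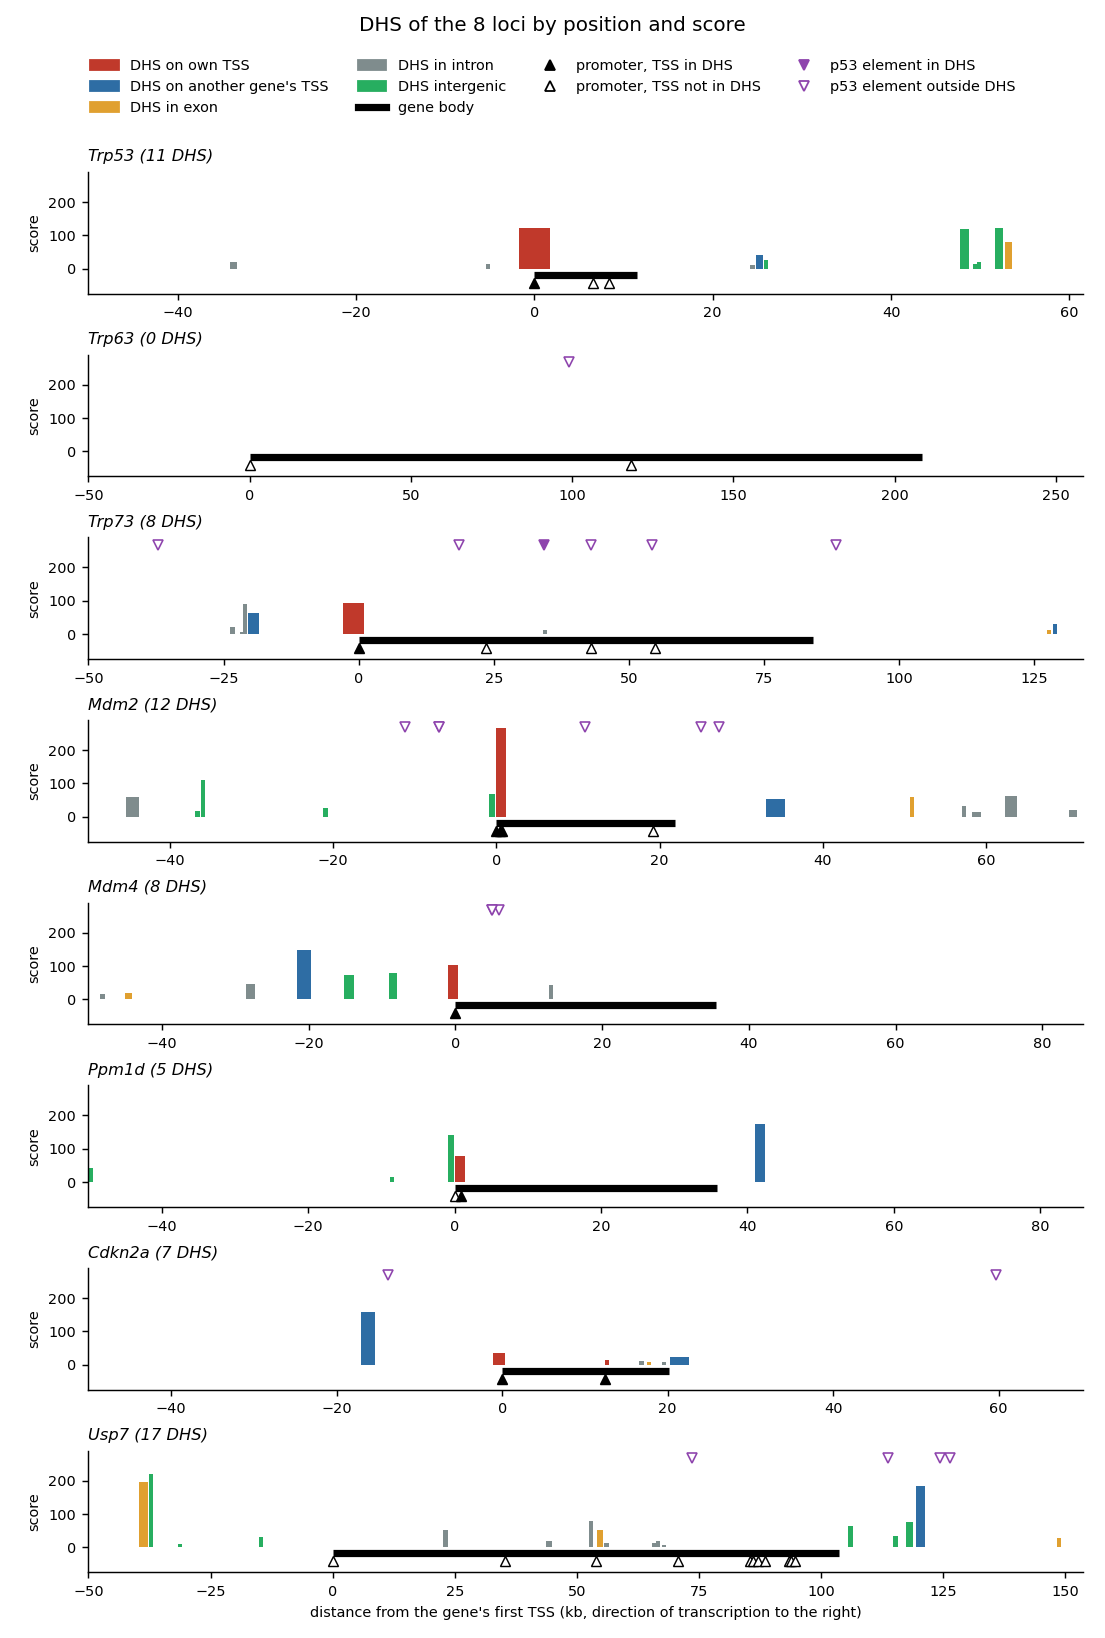
All 68 DHS of the 8 loci by distance from the gene's first TSS (kb, transcription to the right) and deposited score (bar height). Bar colour gives the place of the DHS, the black line is the gene body, filled and open black triangles are promoters with and without a DHS over the TSS, and purple triangles at the top are p53 elements with at most 2 mismatches. The Trp63 panel holds no bar, the tallest bar is that of Mdm2, and 1 purple triangle, at Trp73, is filled.

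Of 29 other regulators and cofactors of p53, picked from general knowledge, 27 (93.1%) had a DHS over a TSS and 28 in the wider window. Over all protein-coding genes the shares were 46.6% and 57.0%. The 29 genes were not divided by CpG class, so these shares are not set beside genes of like promoters. The scores over TSSs ran from 48.5 to 330 with a median of 104. They included the damage kinases Atm (101.22), Atr (104.20), Chek1 (89.08) and Chek2 (99.19), the ubiquitin ligase Rchy1 (329.72), the methyltransferase Setd8 (323.31) and the ribosomal proteins Rpl5 (198.84) and Rpl11 (116.30), which bind Mdm2. The 2 without were Smyd2, a methyltransferase of p53, which had a DHS of 26.34 in the wider window, and Ppp1r13b, which promotes the apoptotic function of p53 and had none. Wrap53, in the list, shares its DHS with Trp53.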

How the data were processed

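Nuclei of splenic B cells were digested with DNase I, and fragments under 500 bp were sequenced. The authors' deposited list gives each peak a position and a score of their peak caller. Its settings and scale for the DNaseI library are not given in the sources used here. The study's methods name MACS, with a p-value cutoff, under the ChIP-seq analysis only. The submitters' processing notes name mm9, BWA 0.6.2 and SAMtools. No file of the input library was used here.

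Peaks were placed on NCBI build 37 (mm9) with GENCODE release M1, on chromosomes 1 to 19 and X. Positions count from 1. A promoter had a DHS when a peak covered at least 1 bp of its TSSs (joined within 100 bp). RefSeq promoter sequences (GRCm38 table) were matched to build 37 exactly, for 7 of 8 genes. Python 3.11.15 with NumPy 2.4.6, pysam 0.24.0 and numba 0.67.0 was used, and the element search was tested on simulated data. All sequences printed are from build 37.

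All 8 genes were named, with each promoter. Of 29 further genes, drawn from general knowledge, those without a DHS over a TSS were to be named. Markers were to be named where they went against their list, and neighbours where a DHS covered their TSS. The other genes of p53 regulation were picked as examples after their values were seen. Members and lists were chosen with earlier results of these data known. With 1 library no test was possible. Alternatives changed the promoter window, TSS grouping, score minimum, flank and mismatches.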

Additional observations from a re-analysis of the deposited data

How the results depend on the processing

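The counts rest on 1 library, so no result has a replicate check, and no paired analysis was possible because the DNaseI group has 1 sample. Of 32 recomputed values, 15 stayed within 1.5 times a count or inside the interval of a share or median. For the median score of the 7 DHS over member TSSs, this interval ran from 14.8 to 267, their lowest and highest scores. A recomputed median could hardly leave it, so this check does not show that the median is stable. The median of 92.7 fell to 79.6 with DHS within 1 kb and was lower still from 5 kb upstream to 2 kb downstream. Member promoters with a DHS became 17 of 42 when every TSS stood alone. The share of all promoters with a DHS, 31.1%, became 38.1% within 500 bp, 40.3% within 1 kb, 49.2% from 5 kb upstream to 2 kb downstream, 37.5% by the DHS centre, 27.8% with peaks at or above the median score, 40.1% per TSS, 28.5% with TSSs joined within 500 bp and 37.6% for protein-coding transcripts. The number of DHS in the loci, 68, became 20 in gene bodies, 28 with 10 kb flanks and 36 at or above the median score. Of p53 elements in DHS, the main count of 1 became 0 with no mismatch (no such element exists), 8 with 3 mismatches and intact cores, 22 of 383 with cores free, 11 of 322 with a spacer of 1 to 13 bases, and 0 at or above the median score. Unknown depth limits every absence.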
